A study of Mus musculus with 6 samples.

Results

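The Ikaros family is a small set of zinc-finger transcription factors of blood cells, encoded in the mouse by Ikzf1 (Ikaros), Ikzf2 (Helios), Ikzf3 (Aiolos), Ikzf4 (Eos) and Ikzf5 (Pegasus). Its members were found by matching the Ensembl identifiers of the expression tables to gene symbols and taking the genes of these names. All 5 were among the 25655 genes listed, and all 5 passed the filter on low values that left 10590 genes for testing (at least 1 CPM in 3 or more libraries). CPM is a gene's read count after every library has been brought to an equal total.

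Messenger RNA was profiled in cultured CD8 T cells labelled Utx KO, a knockout of the gene for the H3K27 demethylase UTX (Kdm6a), and in CD8 T cells labelled WT, with 3 biological replicates of each. All cells came from spleens of female C57BL/6 mice. Naive cells of both groups received antibodies to TCR-beta (3 µg/ml) and to CD28 (1 µg/ml) during 2 days in interleukin 2 at 10 ng/ml, and interleukin 2 alone during the 3 days that followed, so every library is from day 5. The sources used here give neither the age of the mice nor how, and in which cells, Utx was removed. Whether the biological replicates are separate animals is not stated either, and p-values therefore speak only of the spread among the samples at hand. Libraries were made from 500 ng of RNA by QuantSeq, which takes about 1 tag from the 3' end of a messenger RNA whatever its length, so tag levels of different genes can be set side by side.

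Ikaros proteins carry a cluster of zinc fingers near the N terminus, which bind DNA, and a pair near the C terminus, through which members join with themselves and with each other. They work largely by bringing chromatin complexes to genes, above all the NuRD deacetylase complex, and can repress or activate. Ikaros is needed for the development of lymphocytes, Aiolos is best known in B cells, Helios is high in regulatory T cells and is induced in some activated T cells, and Eos is a partner of Foxp3 in regulatory T cells. Pegasus is the most distant relative and recognises a different DNA motif.

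How close the members are is visible in the fingers themselves. A search of the translated coding sequences (GENCODE M21 transcripts on GRCm38) for the C2H2 zinc-finger pattern matched 6 fingers in Ikzf1, Ikzf2 and Ikzf3 and 5 in Ikzf4 and Ikzf5. It read the longest coding sequence of each gene with a set spacing of residues. A finger with another spacing would be missed, so the lower number does not show that a finger is absent. The second finger of the N-terminal cluster is shown because it is the part by which members read DNA, and because the members with Ikaros-type fingers encode the same 21 residues there with different codons. Capitals mark the bases that differ from Ikzf1, and each sequence runs 5' to 3' on the strand of its gene.
Ikzf1: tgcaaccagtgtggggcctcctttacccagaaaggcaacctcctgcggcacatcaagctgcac
Ikzf2: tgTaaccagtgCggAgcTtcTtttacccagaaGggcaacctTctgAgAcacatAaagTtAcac
Ikzf3: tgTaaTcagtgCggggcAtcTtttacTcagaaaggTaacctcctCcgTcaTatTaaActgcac
Ikzf4: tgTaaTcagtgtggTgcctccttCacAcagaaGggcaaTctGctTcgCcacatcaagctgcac
Ikzf5: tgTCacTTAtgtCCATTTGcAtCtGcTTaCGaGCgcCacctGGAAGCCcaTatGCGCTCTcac

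These 63 bases lie at chr11:11754024-11754086 in exon 6 of Ikzf1 (plus strand), chr1:69570581-69570643 in exon 5 of Ikzf2, chr11:98488940-98489002 in exon 5 of Ikzf3, chr10:128640229-128640291 in exon 5 of Ikzf4 and chr7:131392501-131392563 in exon 4 of Ikzf5 (minus strand for these last 4), all coding. Ikzf2 and Ikzf3 differ from Ikzf1 at 12 bases each and Ikzf4 at 10, and in all 3 the number of changed residues is 0. The finger of Ikzf5 with the same number differs at 37 bases and 16 residues. Its N-terminal cluster ended with finger 3 in this search, and that of the other members with finger 4. Fingers were matched by number, so that of Ikzf5 may not be the counterpart of the others. Over the residues that could be aligned, with gaps left out, Ikzf2 was 56.6% identical to Ikzf1, Ikzf3 56.5%, Ikzf4 51.7% and Ikzf5 30.8%.

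The first finger of the C-terminal pair is shown for Ikzf1, Ikzf2 and Ikzf5 because it belongs to the surface through which members pair. Capitals again mark differences from Ikzf1.
Ikzf1: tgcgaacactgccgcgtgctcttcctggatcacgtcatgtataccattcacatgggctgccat
Ikzf2: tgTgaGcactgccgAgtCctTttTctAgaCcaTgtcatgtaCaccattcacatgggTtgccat
Ikzf5: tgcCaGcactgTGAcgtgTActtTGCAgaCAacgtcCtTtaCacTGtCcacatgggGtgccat

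They lie at chr11:11769411-11769473 (exon 9 of Ikzf1), chr1:69538870-69538932 (exon 8 of Ikzf2) and chr7:131391739-131391801 (exon 4 of Ikzf5), on the same strands. Ikzf2 differs from Ikzf1 here at 11 bases and 0 residues, and Ikzf5 at 20 bases and 7 residues. No stretch of 50 coding bases is shared between any members, so similarity of the proteins does not make their reads interchangeable.

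Recovered totals ran from 1619085 to 2529113 reads per library, and a count of 0 allows up to 3 reads, which is 1.19 to 1.85 CPM depending on the library. This limit and the intervals below cover counting error only. Kdm6a itself was at 27.8, 39.4 and 31.5 CPM in Utx KO libraries 1, 2 and 3, against 44.3, 49.3 and 53.6 CPM in WT libraries 1, 2 and 3 (log2 fold change −0.57, limma adjusted p = 0.0123). That call was lost in 5 of 17 alternative settings, among them without Utx KO replicate 1, WT replicate 2 or WT replicate 3 (adjusted p 0.0051 to 0.120 over the alternatives), and with the deleted part of the gene not stated, a 3' tag does not check the labels.

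Helios was the only family member to pass the test between Utx KO and WT at day 5. Ikzf2 rose in Utx KO cells, while Ikzf1, Ikzf3, Ikzf4 and Ikzf5 did not pass the test. That is 1 of 5 members called, in the direction of higher, beside 10.8% of all 10590 tested genes called in either direction, 5.28% called higher and 5.51% called lower (limma on log2(CPM + 1), Benjamini-Hochberg adjusted p under 0.05). In bulk samples like these, a different number of expressing cells and a different amount of RNA in each cell cannot be told apart.

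Ikzf2 (ENSMUSG00000025997, chr1:69531214-69687245, minus strand) was at 39.7, 44.0 and 45.7 CPM in Utx KO libraries, against 12.7, 14.3 and 12.0 CPM in WT libraries. Every Utx KO library lay far above every WT library, and within each group the 3 values were close together. The ratio of the group means was 3.32, and the log2 fold change was 1.66 (SE 0.17, 95% interval 1.30 to 2.02, limma adjusted p = 2.82e-07). The values rest on 100, 77 and 74 reads in Utx KO and on 32, 31 and 22 reads in WT. Exact Poisson intervals (95%) were 32.3 to 48.3, 34.7 to 55.0 and 35.9 to 57.4 CPM in Utx KO, against 8.65 to 17.9, 9.71 to 20.3 and 7.54 to 18.2 CPM in WT. The lowest bound in Utx KO is therefore above the highest bound in WT. Pooled over libraries, 251 reads in Utx KO and 85 reads in WT set the CPM ratio at 3.27 (2.55 to 4.24 by the exact 95% counting interval). Replicates varied less than their read numbers alone allow on average: the coefficient of variation was 7.14% in Utx KO and 8.94% in WT, where counting gives 11.1% and 18.9%. Among all 10590 tested genes, Ikzf2 ranked 38 by size of rise, although by its mean level over the 6 libraries it stood at the middle of the tested genes (percentile 54.1). Its call held in all 17 alternative settings tried.

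**Figure D1:**
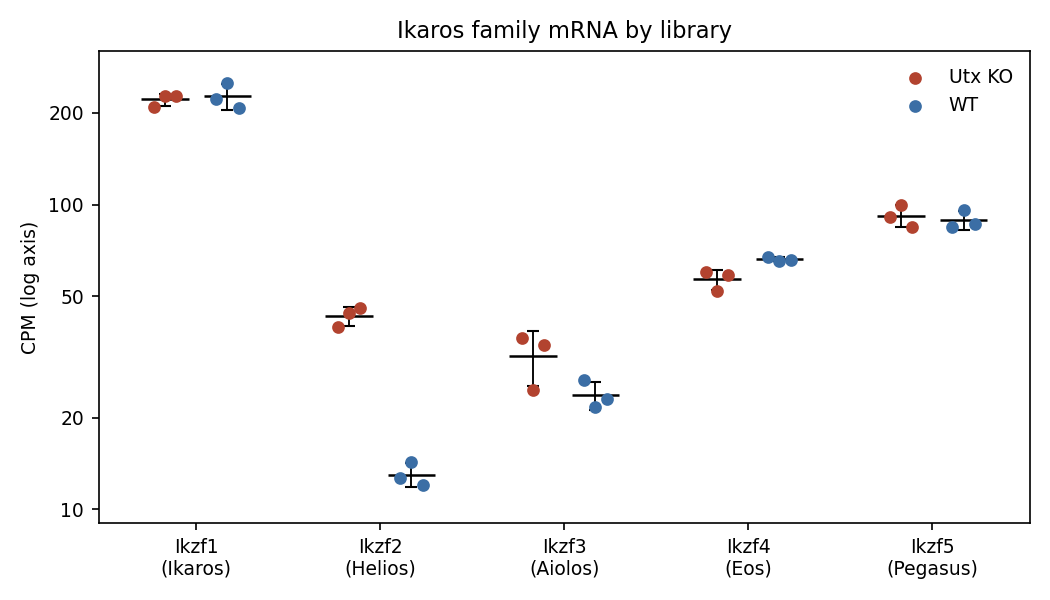
CPM of each Ikaros family gene in every library, with Utx KO left of WT in each panel, points for libraries, and a bar with error bar for the group mean and SD (n = 3 each). Ikzf2 is at 39.7 to 45.7 CPM in Utx KO and 12.0 to 14.3 CPM in WT, while the groups overlap for Ikzf1, Ikzf3 and Ikzf5, and Ikzf4 lies lower in Utx KO without passing the test.

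Ikzf1 (ENSMUSG00000018654, chr11:11685003-11772926, plus strand), the founding member, was the most abundant. It was at 210 CPM, 227 CPM and 227 CPM in Utx KO libraries, against 223, 251 and 207 CPM in WT libraries. The lowest and the highest of the 6 values were both in WT, so the groups overlapped completely. Means were 221 ± 10.2 CPM in Utx KO and 227 ± 21.9 CPM in WT (SD, n = 3 each), with a log2 fold change of −0.03 (SE 0.08, limma adjusted p = 0.866). The 95% interval of the fold was 0.877 to 1.09 on the CPM + 1 scale. Ikzf1 was the best counted member, with 1294 reads in Utx KO and 1487 reads in WT.

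Ikzf3 (ENSMUSG00000018168, chr11:98464902-98546031, minus strand), the gene of Aiolos, was at 36.5, 24.6 and 34.6 CPM in Utx KO libraries, against 26.5, 21.7 and 23.0 CPM in WT libraries. Utx KO libraries 1 and 3 were above all WT libraries and Utx KO library 2 was below WT library 1. The log2 fold change was 0.40 (SE 0.18, 95% interval 0.03 to 0.76), with an unadjusted p of 0.0343 and a limma adjusted p of 0.177. The adjusted p ran from 0.0576 without Utx KO replicate 2 to 0.557 with DESeq2, so it passed in 0 of 17 alternatives. Replicates of Ikzf3 were the least even of the family in Utx KO, with a coefficient of variation of 20.2% against 12.8% from counting.

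Ikzf4 (ENSMUSG00000002578, chr10:128630843-128645991, minus strand) was at 60.0, 52.0 and 58.7 CPM in Utx KO libraries, against 67.2, 65.4 and 65.7 CPM in WT libraries. Every Utx KO library was below every WT library, and the WT values were closer to each other (coefficient of variation 1.47%) than counting gives on average (8.41%). The log2 fold change was −0.22 (SE 0.11, 95% interval −0.45 to 0.02) and it did not pass (limma adjusted p = 0.267, range over the alternatives 0.218 to 0.722). Groups did not overlap for 2 of the 5 members, Ikzf2 and Ikzf4, beside 26.5% of all tested genes (14.0% higher and 12.6% lower in Utx KO).

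Ikzf5 (ENSMUSG00000040167, chr7:131388652-131410521, minus strand) was at 91.4, 99.95 and 84.6 CPM in Utx KO libraries, against 84.2, 95.8 and 86.4 CPM in WT libraries. The groups overlapped, with the middle library of each within the other group's range. The log2 fold change was 0.05 (SE 0.10, 95% interval −0.16 to 0.26, limma adjusted p = 0.841). Of the last 300 nt of its coding transcripts, 13.1% of the 50-nt pieces also occur in the gene model Gm10356, and its exons overlap Pstk on the opposite strand, which was at 5.71 to 9.88 CPM. For the other 4 members this share was 0%.

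Per-gene values do not separate splice forms, which matters for a family known for short forms without DNA-binding fingers. Ikzf2 has 9 annotated transcripts, 7 of them coding, with 5 distinct 3' ends among the coding ones spread over 46676 bases. A 3' tag could come from any of these ends, and which ends were used was not analysed here. On the opposite strand, Gm29114 overlaps exons of Ikzf2 and Gm26876 those of Ikzf4. Neither has a value here, and whether counting used the strand is not stated in these sources.

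Helios made up a larger share of the family's tags in Utx KO cells than in WT cells. The share of Ikzf2 in the summed CPM of the 5 genes was 9.08%, 9.82% and 10.1% in Utx KO libraries, against 3.06%, 3.19% and 3.05% in WT libraries. The groups were far apart. The means were 9.68 ± 0.541% in Utx KO and 3.10 ± 0.0775% in WT (SD, n = 3 each), a difference of 6.58 points. Wilson 95% intervals of the single shares ran from 7.52% to 12.5% over the Utx KO libraries and from 2.02% to 4.58% over the WT libraries. The exact two-sided permutation test over the 6 libraries gave p = 0.1, the smallest that 3 against 3 can reach.

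The shares of the other members differed less. Ikzf1 made up 49.7 ± 1.53% of the family tags in Utx KO and 54.2 ± 1.71% in WT, a difference of −4.44 points with groups that did not overlap (exact permutation p = 0.1). Ikzf4 made up 12.8 ± 1.07% in Utx KO and 15.8 ± 1.08% in WT, a difference of −3.06 points, again without overlap (exact permutation p = 0.1). For Ikzf3 (7.17 ± 1.50% in Utx KO and 5.69 ± 0.794% in WT) and Ikzf5 (20.7 ± 1.79% in Utx KO and 21.2 ± 0.790% in WT) the groups overlapped, with exact permutation p of 0.3 and 0.7. Shares sum to a fixed total, so a larger share of Ikzf2 lowers the others by construction. Among the 4 genes without Ikzf2, a total added after the values were seen, Ikzf1 made up 55.0 ± 1.99% in Utx KO and 55.9 ± 1.81% in WT, with overlapping groups, and Ikzf4 made up 14.1 ± 1.14% in Utx KO and 16.3 ± 1.10% in WT, without overlap.

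**Figure D2:**
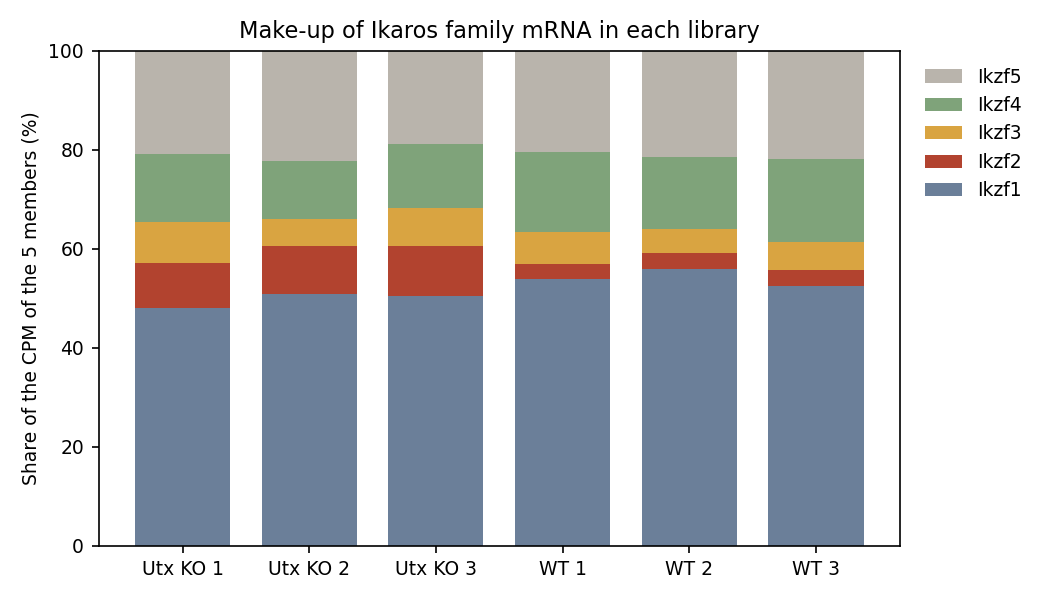
Share of each Ikaros family gene in the summed CPM of the 5 genes, in percent, as a stacked bar for each library with Utx KO libraries left of WT libraries. The Ikzf2 segment covers 9.08% to 10.1% in Utx KO and 3.05% to 3.19% in WT, and Ikzf1 is the largest segment in all 6 libraries.

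The summed level of the family was 437, 448 and 451 CPM in Utx KO libraries, against 414, 448 and 394 CPM in WT libraries. The groups overlapped, since WT library 2 was as high as Utx KO library 2. The means were 445 ± 7.11 CPM in Utx KO and 419 ± 27.1 CPM in WT (SD, n = 3 each), a difference of 26.7 CPM. Ikzf2 alone differed by 30.1 CPM and the other 4 members together by −3.47 CPM.

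Ranked by level, the family had the same order within each group and a different one between them. In all 3 Utx KO libraries the order from high to low was Ikzf1, Ikzf5, Ikzf4, Ikzf2, Ikzf3. In all 3 WT libraries Helios came last and Aiolos before it. Neighbours in the order had ranges over libraries that did not overlap, in either group. Within single libraries, however, counting intervals of some neighbours did overlap. In Utx KO library 1 they were 32.3 to 48.3 CPM for Ikzf2 and 29.5 to 44.8 CPM for Ikzf3. In WT library 2 they were 9.71 to 20.3 CPM for Ikzf2 and 15.9 to 28.8 CPM for Ikzf3. Helios and Aiolos changed places. Their within-library ratio, Ikzf2 over Ikzf3, was 1.09, 1.79 and 1.32 in Utx KO libraries, against 0.478, 0.660 and 0.524 in WT libraries. Relative to Ikzf1, Ikzf2 stood at 0.195 in Utx KO and 0.0573 in WT (mean of the within-library ratios), relative to Ikzf4 at 0.762 in Utx KO and 0.197 in WT, and relative to Ikzf5 at 0.472 in Utx KO and 0.146 in WT. On the log2(CPM + 1) scale, the change of Ikzf2 exceeded that of Ikzf1 by 1.69, of Ikzf3 by 1.26, of Ikzf4 by 1.87 and of Ikzf5 by 1.61. Each of these 4 differences gave an exact permutation p of 0.1, the smallest possible, which stays 0.1 when adjusted over the 4.

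The genes whose level ran most like that of Ikzf2 over the 6 libraries were Nrn1, Tnfrsf4, Ckap4, Pygm and Mpp2. They were found by the root mean square distance between log2(CPM + 1) profiles, each centred on its own mean, among 7284 genes with a mean of at least 10 CPM. Since that measure favours genes with the same change between the groups, their folds are given as description only. Nrn1, which encodes the small secreted or membrane-anchored protein neuritin, was closest at a distance of 0.143. It was at 466, 448 and 416 CPM in Utx KO libraries, against 147, 155 and 157 CPM in WT libraries. That is about the same fold as for Ikzf2 (log2 fold change 1.53) at a higher level, and its exons overlap Fars2 on the opposite strand. Tnfrsf4, the costimulatory receptor OX40, lay at 0.173 and averaged 31.5 ± 2.93 CPM in Utx KO and 8.69 ± 1.91 CPM in WT (SD, n = 3 each). Ckap4, an endoplasmic reticulum membrane protein (0.178), averaged 23.6 CPM in Utx KO and 8.78 CPM in WT. Pygm, the muscle form of glycogen phosphorylase (0.207), averaged 15.5 CPM in Utx KO and 5.26 CPM in WT. Mpp2, a membrane scaffold protein (0.238), averaged 20.1 CPM in Utx KO and 7.60 CPM in WT. By the same measure, Ikzf3 was at a distance of 0.675 from Ikzf2 and the other members were at 0.812 to 0.945. These distances mostly restate how far the change of each member lay from that of Ikzf2, so they are no separate result.

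**Figure D3:**
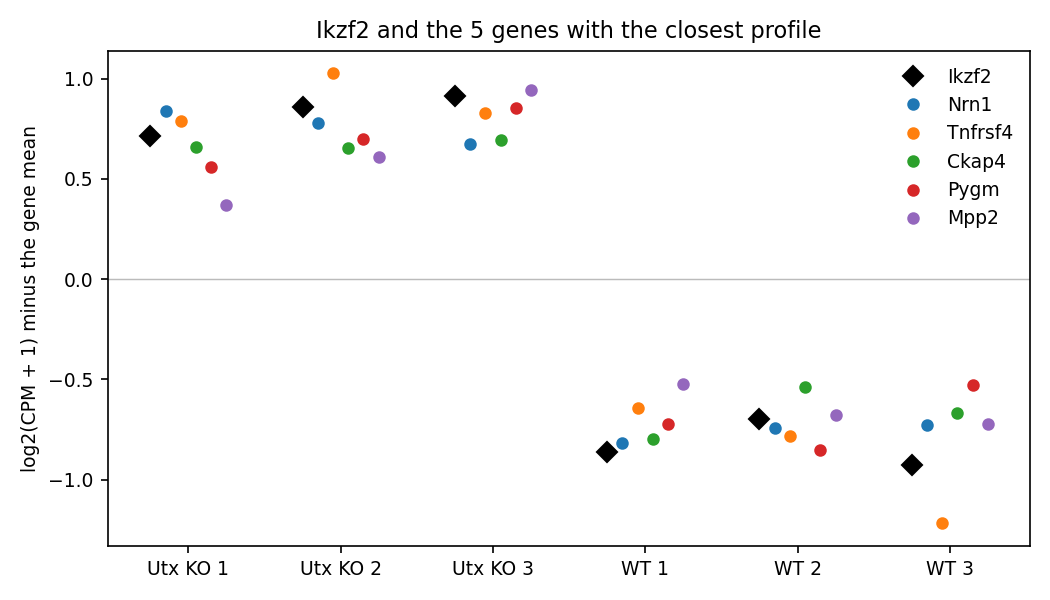
log2(CPM + 1) minus the mean over the 6 libraries for Ikzf2 (black diamonds) and the 5 genes with the closest profile (coloured points), with Utx KO libraries left of WT libraries. All 6 genes lie above their means in the Utx KO libraries and below them in the WT libraries, at distances from Ikzf2 of 0.143 for Nrn1 to 0.238 for Mpp2.

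The complexes through which Ikaros proteins act had a share of calls near that of all genes. Of 17 tested genes of NuRD and of the corepressors CtBP and Sin3, 2 were called, 11.8% beside 10.8% of all tested genes. Of 14 NuRD genes, all tested, 1 was called higher and 0 lower, and 4 passed an unadjusted p under 0.05, with a median log2 fold change of 0.06 beside 0.01 for all tested genes and a range of −0.33 to 0.24. Chd4, the nucleosome-remodelling ATPase that binds Ikaros, was at 866 ± 84.0 CPM in Utx KO and 835 ± 28.5 CPM in WT (SD, n = 3 each; log2 fold change 0.05, limma adjusted p = 0.689). The deacetylase Hdac1 was at 212 CPM in Utx KO and 201 CPM in WT (0.07, limma adjusted p = 0.638), and the scaffold subunit Mta2 at 98.0 CPM in Utx KO and 84.3 CPM in WT (0.22, limma adjusted p = 0.175), with groups that did not overlap. The gene called was Cdk2ap1, a small NuRD-associated protein, at 208 CPM in Utx KO and 176 CPM in WT (0.24, limma adjusted p = 0.0456). Its call was lost in 10 of 17 alternatives, among them without any 1 of the 3 WT libraries and without Utx KO replicate 1 or 3 (adjusted p 0.0232 to 0.287). Moreover, 91.5% of the pieces of its 3' end also occur in other gene models (Gm12184 and Gm29485), so its value is uncertain.

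Among the corepressors CtBP and Sin3, 3 of 4 genes were tested, with Ctbp2 under the filter, and Sin3b, the 1 gene that passed unadjusted, fell. Sin3b, a scaffold for deacetylases, was at 106 ± 7.48 CPM in Utx KO and 130 ± 2.68 CPM in WT (SD, n = 3 each; log2 fold change −0.29, limma adjusted p = 0.0327), a call lost in 6 of 17 alternatives, among them without any 1 WT library and without Utx KO replicate 3 (adjusted p 0.0250 to 0.209). Enzymes that modify Ikaros proteins, casein kinase 2 and protein phosphatase 1, gave 0 called of 6 with limma, with a median of 0.06. With edgeR, DESeq2 or limma-voom, 0 were called too. At an unadjusted p under 0.05, 1 of the 6 passed. Of the 3' pieces of Ppp1cc, 97.9% also occur in other gene models, and of those of Csnk2a1, 49.4%, so their values are uncertain. The cereblon ubiquitin ligase, which drugs such as lenalidomide direct to human Ikaros and Aiolos, gave 0 called of 5 with the same tools, with a median of 0.03 and 0 passing unadjusted. Of all tested genes, 22.7% passed an unadjusted p under 0.05.

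Genes linked to Ikaros proteins in lymphocytes were called in both directions. Of 13 tested genes of 18, 3 were higher and 3 lower, beside 5.28% and 5.51% of all tested genes, with a median log2 fold change of 0.18. This list and those above were chosen with earlier results of these data known, so their shares of calls are description only. Without WT replicate 1, the list had 3 calls in place of 6, and with any other library left out it had 4 or 5. The filter still asked for 1 CPM in 3 libraries in these settings. Il10 was therefore not tested with a WT library left out, nor Bcl6 with a Utx KO library left out. Bcl6 and Il10 are among the 6, although each passed the filter on low values only through the group where it was higher, so neither call bears on the count; without them, 4 of 11 genes were called, 2 in each direction. The higher ones were Il2ra, Cd8b1 and Bcl6. Il2ra, the interleukin 2 receptor alpha chain, was at 622 ± 4.30 CPM in Utx KO and 501 ± 15.4 CPM in WT (SD, n = 3 each; 0.31, limma adjusted p = 0.000158), a call lost in 1 of 17 alternatives, limma without its trend (adjusted p 1.66e-05 to 0.121). The coreceptor chain Cd8b1 was at 417 CPM in Utx KO and 365 CPM in WT (0.19, limma adjusted p = 0.0318), and 34.3% of its 3' pieces are found elsewhere. Its call was lost in 6 of 17 alternatives, among them without Utx KO replicate 1 or 2 and without WT replicate 1 or 2 (adjusted p 0.0223 to 0.309). Bcl6, a repressor that opposes Blimp-1, had 14 reads in all Utx KO libraries together and 1 read in all WT libraries, so the CPM ratio was 15.5 (2.36 to 656 by the exact 95% counting interval). Bcl6 passed the filter on low values only through Utx KO, so its test is given no weight here.

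The lower ones were Prdm1, Ifng and Il10. Prdm1, which encodes Blimp-1, was at 13.1, 16.0 and 19.1 CPM in Utx KO libraries, against 30.1, 35.5 and 30.1 CPM in WT libraries, so each Utx KO library was below each WT library (−0.96, limma adjusted p = 0.000979). The cytokine gene Ifng had 8 pooled reads in Utx KO and 52 in WT (CPM ratio 0.171, with exact 95% counting bounds of 0.0700 and 0.362), and Il10 had 2 in Utx KO and 34 in WT (0.0652, with bounds of 0.00759 and 0.254). Il2, a gene that Ikaros is known to repress in T cells, was at 2.69 ± 0.791 CPM in Utx KO and 2.51 ± 2.03 CPM in WT (SD, n = 3 each; limma adjusted p = 0.822), near the limit of these depths, and 55.0% of its 3' pieces are shared with Ntan1. Tbx21, the effector factor T-bet, was at 27.6 CPM in Utx KO and 23.1 CPM in WT (limma adjusted p = 0.519). Foxp3, the partner of Eos in regulatory T cells, was at 7.31 ± 0.618 CPM in Utx KO and 9.35 ± 1.71 CPM in WT (limma adjusted p = 0.568), with exons that overlap other genes, among them Flicr and Ccdc22. Over all lists, 8 of 41 tested genes were called (4 higher and 4 lower), and without Bcl6 and Il10 6 of 39, 15.4% beside the 10.8% of all tested genes. With lists chosen after earlier results were known, these 2 shares do not form a test.

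**Figure D4:**
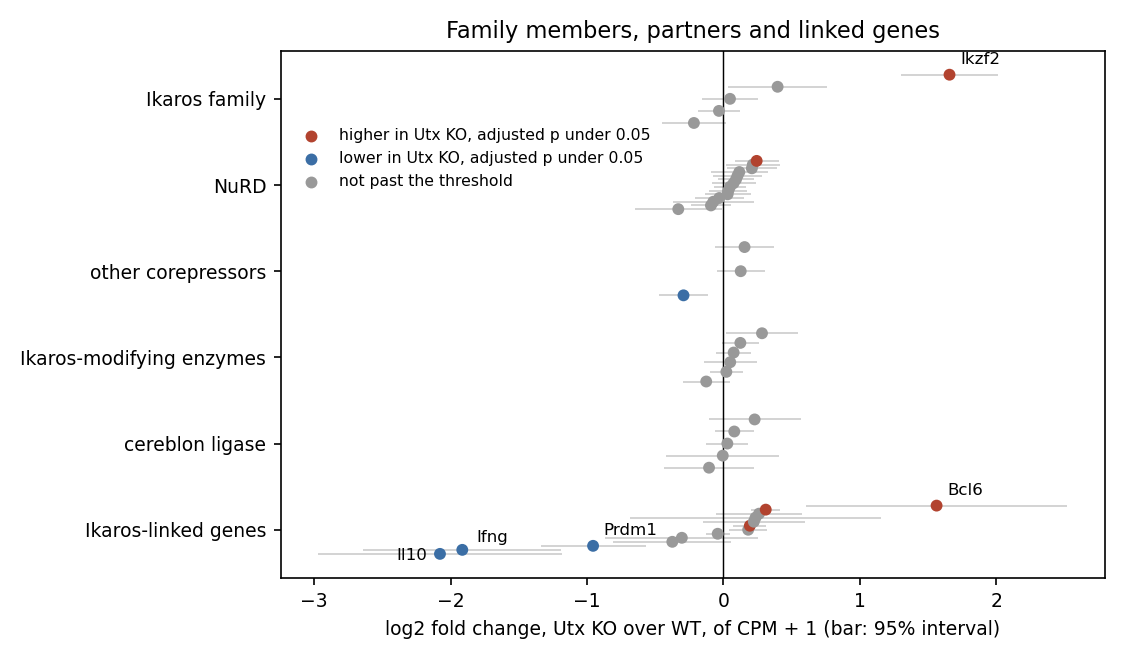
log2 fold change (Utx KO over WT, log2(CPM + 1) scale) of each tested member of the family and of the partner and linked-gene lists, with 95% intervals; red points were called higher and blue points lower at a limma adjusted p under 0.05. Ikzf2 stands at 1.66, the partner lists lie between −0.33 and 0.28, and the linked genes reach from −2.08 (Il10) to 1.56 (Bcl6). Il10 and Bcl6 each passed the filter on low values only through the group where it was higher. Without them the linked genes reach from −1.91 to 0.31.

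Since Helios, Eos and Aiolos mark particular lymphocytes, markers of the other cells that a spleen culture could hold were read in the same libraries. The T and CD8 T cell markers summed to 2064 to 2104 CPM in Utx KO and 1773 to 1859 CPM in WT. Of these 6 genes, 3 were called higher, beside 5.28% of all tested genes. Regulatory and CD4 T cell markers (5 genes, 0 of 3 tested called) summed to 81.7 to 97.6 CPM in Utx KO and 96.8 to 109 CPM in WT, with Cd4 at 0 in all libraries and Lrrc32 giving most of the sum. B cell markers summed to 0.571 to 1.99 CPM in Utx KO and 2.76 to 5.47 CPM in WT, with Cd79a, Ms4a1 and Pax5 at 0. Natural killer cell markers summed to 177 to 201 CPM in Utx KO and 261 to 281 CPM in WT, nearly all of it Eomes, which CD8 T cells also express, with Ncr1 at 0. Eomes averaged 189 CPM in Utx KO and 269 CPM in WT (log2 fold change −0.51, limma adjusted p = 2.33e-05). It was the 1 gene called lower of the 2 tested in this list, beside 5.51% of all tested genes. Myeloid markers (7.55 to 12.4 CPM in Utx KO and 6.72 to 8.29 CPM in WT), plasmacytoid dendritic cell markers (39.3 to 51.3 CPM in Utx KO and 39.5 to 47.9 CPM in WT) and erythroid markers (2.28 to 3.09 CPM in Utx KO and 0 to 0.461 CPM in WT) had the defining genes Lyz2, Itgam, Adgre1, Cd14, Siglech, Alas2 and Hbb-bs at 0. Other members of these lists were present: Hbb-bt, a beta-globin gene, had 3, 3 and 4 reads in Utx KO libraries, against 0 in every WT library. It passed the filter on low values only through Utx KO, so its test is not used here. Hba-a2, an alpha-globin gene, had 4 pooled reads in Utx KO and 1 in WT. Cd68, a lysosomal protein of macrophages, was at 8.82 CPM in Utx KO and 6.02 CPM in WT, without overlap (limma adjusted p = 0.331). The T and CD8 T cell sums and the erythroid sums were higher in Utx KO without overlap, as Ikzf2 was, and the B cell and natural killer cell sums were lower without overlap. The part of such cells in the Ikzf2 result was not tested.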

How the data were processed

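Each library has a table of CPM values by Ensembl gene, made and deposited by the authors, per the file headers. GRCm38 and mm10 are the builds in the submitters' processing notes. Not given in the sources used here are the aligner, the counter, how strand or reads with several matches were handled, and filters. Divided by the worth of 1 read, 100% of the deposited CPM values were whole reads (tolerance 0.001 reads). Symbols were found for 25600 of 25655 identifiers.

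The test was limma-trend (limma 3.58.1, R 4.3.3) of genotype alone on log2(CPM + 1), over the 10590 genes that reached 1 CPM in 3 libraries. It was two-sided, with Benjamini-Hochberg adjustment over all of them and a threshold of 0.05. Fold changes on this scale understate those of low genes. Single values such as shares were compared by exact permutation over the 6 libraries (scipy 1.17.1). edgeR 4.0.16, DESeq2 1.42.0 and limma-voom on the recovered reads, other pseudocounts (0.1 and 0.5) and filters, TMM scaling, limma without the trend or robust, a replicate block and leaving out each library were alternatives. The fit was tested on simulated data. Replicate numbers are shared between the groups, but same-numbered libraries did not deviate together, so the fit has no block.

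The members and lists were chosen with earlier results of these data known. Named are the 5 members, Kdm6a, the list genes past the threshold, a fixed set (Chd4, Mta2, Hdac1, Il2, Ifng, Il10, Tbx21 and Foxp3), and the 5 genes with a profile closest to each member called, leaving out genes known by a model number and receptor segments. Positions, exons and coding sequences are from GENCODE M21 on GRCm38, and the sequence pieces compared were 50 nt long, from the last 300 nt of the coding transcripts of a gene. The C-terminal finger of Ikzf3 and Ikzf4 is not reported here.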

Additional observations from a re-analysis of the deposited data

How the results depend on the processing

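Over 17 alternatives to the fit of each gene, Ikzf2 kept its direction and its call in 17 (log2 fold change 1.61 to 1.72, highest adjusted p 0.00266), and Ikzf1, Ikzf3, Ikzf4 and Ikzf5 passed in 0. Near 0, the sign of Ikzf1 and Ikzf5 turned when libraries were left out: the log2 fold change of Ikzf1 ran from −0.0951 to 0.0411 (0.0411 without WT replicate 2 and 0.0062 without Utx KO replicate 1), that of Ikzf5 from −0.0126 (without Utx KO replicate 2) to 0.106, and that of Il2 from −0.26 (without WT replicate 3) to 0.67. Of all tested genes, 1142 were called, against 383 with limma without the trend, 551 with DESeq2, and 747 (without WT replicate 2) to 1056 with a library left out. Of the partner and linked genes 8 were called, against 4 without the trend, 4 with DESeq2, and 3 (without WT replicate 1) to 6 with a library left out. Part of that last drop is the filter, which removed Il10 without a WT library and Bcl6 without a Utx KO library. The cause of the other losses was not tested. With a total that leaves out Ikzf2, chosen after seeing the data, the difference in share became −0.84 points for Ikzf1 and 0.97 points for Ikzf5. With a library left out, the share difference of Ikzf5 turned sign, from −1.40 (without Utx KO replicate 2) to 0.380 points (without Utx KO replicate 3), and that of Ikzf3 ran from 0.889 to 2.33 points (without Utx KO replicates 1 and 2 in turn). The correlation of deviations between same-numbered libraries was 0.006, −0.003 and −0.010, so the numbers were not taken as pairs; a fit with the replicate block called 1065 genes and gave 1.66 for Ikzf2. The depth limits Ikzf2 to 22 to 32 reads in each WT library, and 3 replicates cannot take an exact test of a share below 0.1.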
